A study of Mus musculus with 12 samples.

Results

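The epidermal growth factor (EGF) receptor family and its ligands were followed in colonic intestinal epithelial cells across 4 groups of 3 mouse samples. The 10 genes were chosen by symbol: the receptors Egfr, Erbb2 and Erbb3, the ligands Areg, Ereg, Hbegf, Tgfa, Btc and Nrg1, and the receptor inhibitor Errfi1. All 10 were found among the 46517 gene IDs of the count tables, and 9 had enough reads to be tested. Nrg1 did not. The wild-type (WT) and Nfkb2-/- (knockout, KO) mice were all of the C57BL/6 strain and 7 to 9 weeks old, and mice of each genotype received either no treatment or 48 h of dextran sulfate sodium (DSS), a sulfated polysaccharide that damages the lining of the colon. Nfkb2 encodes p100, the precursor of the NF-kB subunit p52, and the labels name no promoter or Cre that would restrict its loss to the epithelium. Cells were detached from the colon with EDTA and were not sorted, and RNA was read by bulk RNA sequencing, so fewer cells of a type and less RNA per cell cannot be told apart. The design asks how the RNA of these genes changes with DSS, with loss of Nfkb2, and with both.

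Receptors of this family are tyrosine kinases that signal in pairs. EGFR binds amphiregulin (Areg), epiregulin (Ereg), heparin-binding EGF-like growth factor (Hbegf), transforming growth factor alpha (Tgfa) and betacellulin (Btc), ErbB3 binds neuregulins such as Nrg1, and ErbB2 has no known ligand and acts as the preferred partner of the others. The ligands are made as membrane proteins and cut free by metalloproteases such as ADAM17. Bound receptors signal through RAS and ERK, PI3K and AKT, and STAT3, while Errfi1 (also called Mig6) binds the active kinase domain and blocks it. In the colon the pathway is known for driving epithelial growth and repair after injury.

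Of the ligand genes, 3 lie close together on mouse chromosome 5 in the GRCm38 build, within a stretch of 376 kb that also holds Epgn. Ereg occupies chr5:91074622-91093646 and Areg chr5:91139599-91148432, both on the plus strand, 46.0 kb apart, and Btc lies 209 kb further on at chr5:91357261-91402994 on the minus strand. Upstream sequence was in the RefSeq promoter table (GRCm38.p6) for 6 of the 10 genes, with 2 starts for Errfi1. Erbb3, Ereg, Hbegf and Nrg1 had no entry and were not searched. The 250 bases before the start are shown for the cluster neighbours Areg and Btc, whose DSS changes were not compared by a test. They are also shown for Errfi1 (its downstream start), the only other promoter of these 6 genes with the same cyclic AMP response element (CRE) as Areg. Each is written 5′ to 3′ on the gene's own strand, with matches to the searched motifs in capitals.
Areg, chr5:91139349-91139598, plus strand: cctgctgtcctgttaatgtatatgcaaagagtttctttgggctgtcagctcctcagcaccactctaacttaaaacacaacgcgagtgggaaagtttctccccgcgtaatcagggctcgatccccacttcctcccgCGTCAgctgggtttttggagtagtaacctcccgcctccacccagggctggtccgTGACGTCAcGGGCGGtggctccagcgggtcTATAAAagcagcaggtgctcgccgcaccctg
Errfi1, chr4:150854820-150855069, plus strand: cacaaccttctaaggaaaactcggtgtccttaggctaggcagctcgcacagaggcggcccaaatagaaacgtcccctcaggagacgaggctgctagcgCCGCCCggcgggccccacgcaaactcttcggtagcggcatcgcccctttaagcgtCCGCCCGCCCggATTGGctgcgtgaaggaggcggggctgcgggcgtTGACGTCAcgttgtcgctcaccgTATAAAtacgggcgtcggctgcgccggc
Btc, chr5:91402995-91403244, minus strand: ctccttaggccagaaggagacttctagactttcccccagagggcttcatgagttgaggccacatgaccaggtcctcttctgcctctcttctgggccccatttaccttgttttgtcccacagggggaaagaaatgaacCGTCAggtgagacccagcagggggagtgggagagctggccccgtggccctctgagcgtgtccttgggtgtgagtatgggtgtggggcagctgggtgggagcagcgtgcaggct

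The motifs searched on both strands were the CRE TGACGTCA, its shorter form TGACG (which the full CRE contains), the AP-1 site TGANTCA, the kappaB site, the GC box GGGCGG, the TATA box TATAAA and the CCAAT box. In the Areg window the CRE lay 61 to 54 bases before the start, next to a GC box at 52 to 47 and a TATA box at 31 to 26. In the Errfi1 window the CRE lay 51 to 44 bases before the start, with a TATA box at 28 to 23, 3 GC boxes and 1 CCAAT box. The Btc window held 1 match, to the shorter CRE form. A full CRE was found in 1.55% of 32851 promoters of this length, the shorter form in 17.8%, a GC box in 32.7%, a TATA box in 12.4% and a CCAAT box in 33.8%. No AP-1 or kappaB letters were in the windows of the 6 genes, against 6.75% and 7.25% of all promoters. Nothing is known here of these letters upstream of Hbegf, Erbb3, Ereg or Nrg1. A match is a description of letters and not a measured binding site.

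The libraries held 5595909 to 8117740 counts and 15738 to 17120 detected genes. Values are counts scaled by library total and TMM factor (CPM), and a floor of 3 counts corresponds to 0.370 to 0.536 CPM of the raw totals, which covers counting error only. Nfkb2, the targeted gene, had 211 to 346 counts in WT libraries and 87 to 143 in KO libraries, and its mean was 39.7 CPM in WT and 15.9 CPM in KO (exact permutation test of log2 CPM over samples, two-sided p = 0.00216, the smallest that 924 splits allow). The sample records list the same values for all 12 libraries: an EpCAM (epithelial marker) purity of 90%, RNA integrity numbers of 7.2 to 9.2 and 2 ng of input RNA. All 10 epithelial markers were detected in every library. The summed level of 18 leukocyte markers differed between the groups, from 18.5–36.3 CPM in untreated WT to 68.1–75.9 in DSS-treated WT, 88.9–99.8 in untreated KO and 143–201 in DSS-treated KO. It therefore moved with both DSS and genotype in every contrast below. Between 4 and 7 of 10 stromal markers were at 0 in each library, and Pdgfra and Lum were at 0 in all 12. Pdgfrb (17 to 94 counts) and Vim (13 to 100 counts) were detected in every library. The summed stromal level was 5.10–16.5 CPM in untreated and 14.4–22.3 in DSS-treated WT, and 14.3–15.9 and 18.4–27.9 in KO. Of 3 stromal markers tested, 1 was called higher in KO without DSS and 1 under DSS. Over all genes, 1.72% and 1.77% were. Library numbers ran without a break from WT to KO, so an effect of genotype and one of library order cannot be told apart.

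The level of each gene per kilobase of exon ordered the family. Its median over the 12 samples was 52.3 CPM per kilobase for Erbb2, 42.9 for Erbb3, 37.2 for Hbegf, 37.1 for Areg and 35.8 for Errfi1. Tgfa was at 5.05, Egfr at 3.67, Btc at 2.06 and Ereg at 0.640. Nrg1 gave 5 counts in DSS-treated WT replicate 3 and 0 in the other 11 libraries. Thus the receptor that binds most of the expressed ligands, Egfr, was the lowest of the 3 receptors, and in every group it made up 3.05% to 4.40% of the summed receptor level on average. With the longest transcript as the length in place of all exons, Hbegf was at 62.2 and stood above the receptors.

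**Figure D1:**
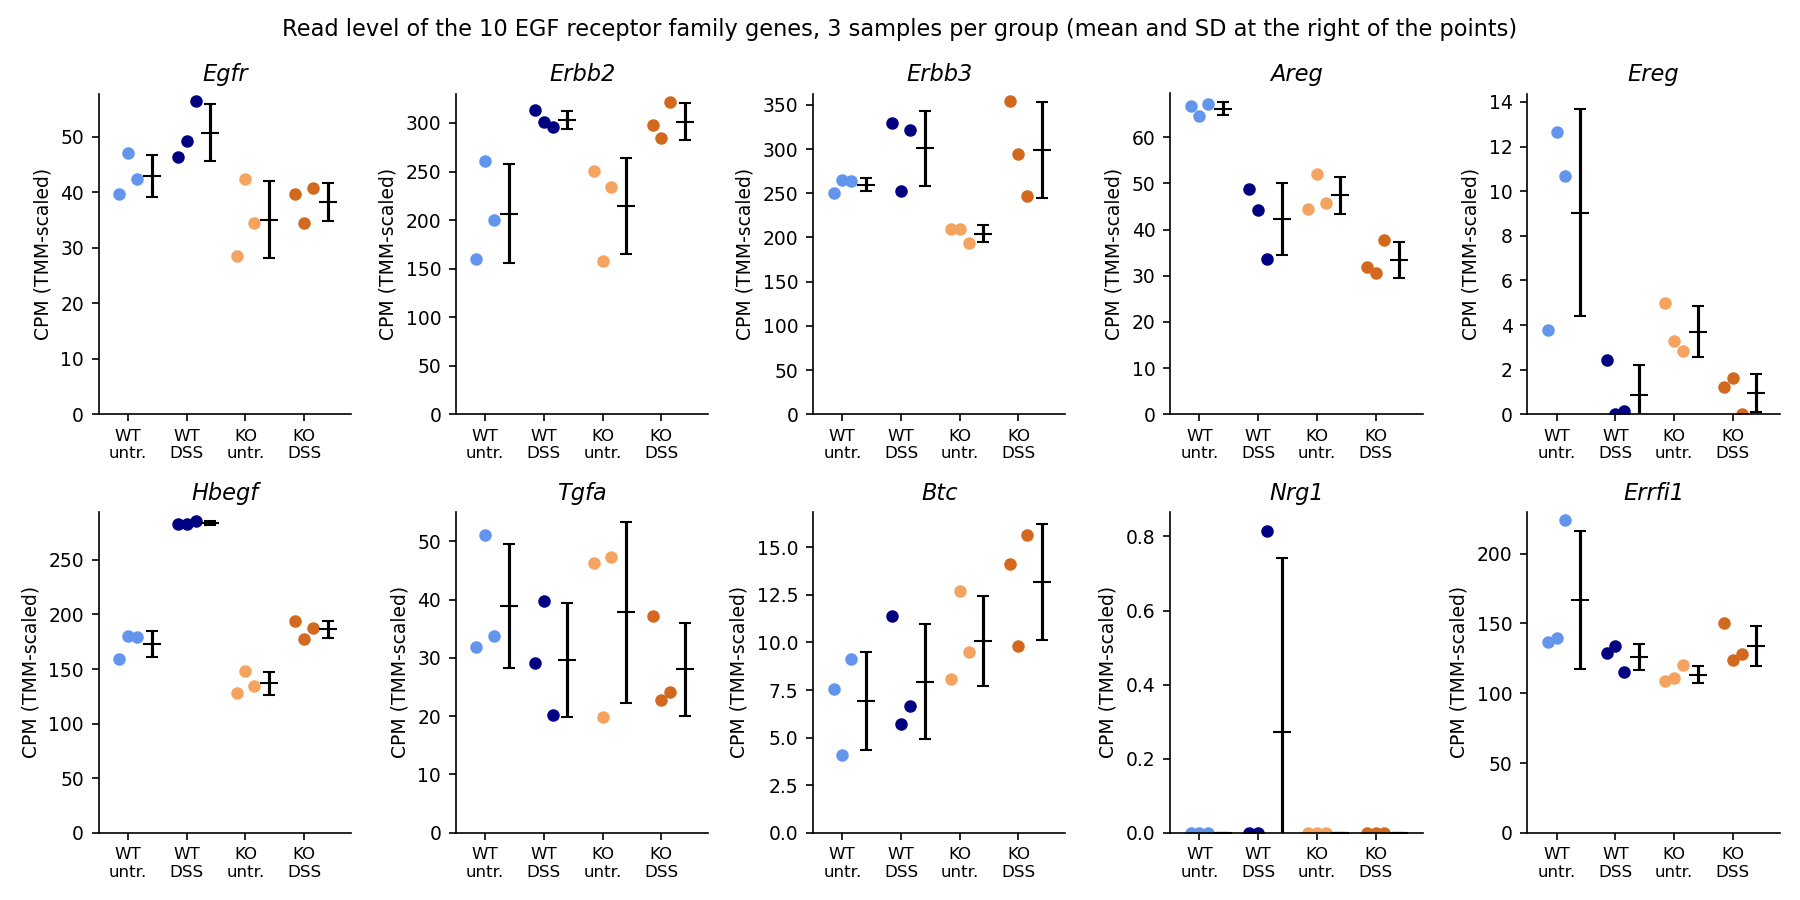
TMM-scaled CPM of the 10 genes in each of the 12 samples, 1 panel per gene, with points for samples and bars for the group mean and SD (n = 3 per group). Hbegf in DSS-treated WT sits at 283 to 286 CPM, above all other samples, and Areg in untreated WT sits at 64.6 to 67.2 CPM, above all other samples.

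Of the receptors, Erbb3 passed the threshold with DSS in KO and no receptor did in WT. Erbb3 pairs with ErbB2 and signals strongly to PI3K. Its values were 210, 209 and 193 CPM in untreated KO and 355, 294 and 247 CPM in DSS-treated KO. The groups did not overlap, and the log2 fold change was 0.55 (SE 0.13, fold 1.46, edgeR adjusted p = 0.0311, n = 3 per group). In WT, Erbb3 was at 251, 265 and 264 CPM untreated and 329, 252 and 322 CPM with DSS, and these groups overlapped (log2 fold change 0.21, edgeR adjusted p = 0.462). The difference between the DSS effects was 0.34 on the log2 scale (95% interval -0.06 to 0.73, edgeR adjusted p = 0.583), so the effects of DSS in the genotypes were not shown to differ. Without DSS, the KO values of Erbb3 all lay below the WT values (log2 fold change -0.35, SE 0.13, edgeR adjusted p = 0.193). The call in KO was lost without untreated KO replicate 1, 2 or 3 or DSS-treated KO replicate 1 or 2 (adjusted p 0.0866 to 0.144), and with the stromal (log2 fold change 0.51, adjusted p = 0.0733) or leukocyte (0.62, adjusted p = 0.265) marker level as a covariate, where its size stayed near 0.55.

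Erbb2 and Egfr did not pass the threshold in any of the 5 contrasts. Erbb2 was at 159, 261 and 200 CPM in untreated WT and at 314, 301 and 295 CPM in DSS-treated WT. In KO it was at 251, 158 and 234 CPM untreated and at 298, 284 and 322 CPM with DSS. Every DSS-treated sample of either genotype thus lay above every untreated sample, whose spread was wide (SD 51.0 CPM in WT and 49.5 CPM in KO). With DSS the WT level differed by 0.55 on the log2 scale (SE 0.17), with an edgeR adjusted p of 0.0861. The KO level differed by 0.49 (SE 0.17), with an edgeR adjusted p of 0.156. In WT the change passed without untreated WT replicate 2 (adjusted p = 0.0232), without untreated KO replicate 2 (adjusted p = 0.0386) and in DESeq2 (adjusted p = 0.0434). Without the filter on low counts it passed in WT (adjusted p = 0.00090) and in KO (adjusted p = 0.00998). Of 20 alternative fits, only 4 passed in WT and 1 in KO. The log2 fold change ran from 0.25 to 0.76 in WT and from 0.31 to 0.62 in KO over these fits. The adjusted p reached 0.855 and 0.687. Under DSS, KO and WT differed by -0.01 on the log2 scale (95% interval -0.38 to 0.36). Egfr ranged from 28.5 CPM in untreated KO to 56.4 CPM in DSS-treated WT. Under DSS its values were 46.5 to 56.4 CPM in WT and 34.4 to 40.7 CPM in KO, without overlap (a log2 difference of -0.41, SE 0.17, edgeR adjusted p = 0.263).

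Among the ligands, Hbegf rose with DSS in both genotypes and was lower in KO than in WT under DSS. Hbegf, on chromosome 18, encodes a ligand with a heparin-binding domain that also binds ErbB4. Its values were 159, 180 and 180 CPM in untreated WT, and 283, 283 and 286 CPM in DSS-treated WT. In KO they were 128, 148 and 135 CPM untreated, and 194, 178 and 188 CPM with DSS. The DSS-treated KO samples overlapped the untreated WT samples, and each of the other neighbouring groups in the order of levels was separate. In WT the rise was 1.64-fold (95% interval 1.42 to 1.90), or 0.72 on the log2 scale (SE 0.10), with an edgeR adjusted p of 0.000259. In KO it was 1.36-fold (95% interval 1.18 to 1.57), or 0.44 (SE 0.10), with an edgeR adjusted p of 0.0173. These DSS contrasts share no samples. Under DSS, KO was at a fold of 0.656 of WT (95% interval 0.569 to 0.757, log2 fold change -0.61, SE 0.10, edgeR adjusted p = 0.00284).

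Without DSS, KO was also lower in Hbegf in 3 of 3 samples (log2 fold change -0.34, SE 0.10), and this did not pass in edgeR (adjusted p = 0.0747) but did in DESeq2 (adjusted p = 0.0156). The difference between the DSS effects, -0.27 on the log2 scale (95% interval -0.56 to 0.02, edgeR adjusted p = 0.520), did not pass, so a smaller DSS effect in KO was not shown. The change in WT and the difference under DSS stayed past the threshold when any 1 library was left out. With the leukocyte marker level as a covariate the log2 fold changes were 0.77 (adjusted p = 0.189) and -0.58 (adjusted p = 0.0901). The change in KO was lost without untreated KO replicate 1 or 3 or DSS-treated KO replicate 1 or 3 (adjusted p 0.0613 to 0.0965), and with that covariate (log2 fold change 0.48, adjusted p = 0.240). The part of leukocyte RNA in these results was not tested.

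Areg, the other abundant ligand, went the opposite way to Hbegf with DSS. Its values in WT were 66.8, 64.6 and 67.2 CPM untreated and 48.9, 44.3 and 33.6 CPM with DSS. The WT groups did not overlap, and Areg fell by 0.65 on the log2 scale (SE 0.16, fold 0.639, 95% interval 0.505 to 0.808, edgeR adjusted p = 0.0232). In KO, Areg was at 44.4, 52.0 and 45.7 CPM untreated and at 32.0, 30.5 and 37.8 CPM with DSS, again without overlap (log2 fold change -0.50, SE 0.16, edgeR adjusted p = 0.109). Untreated KO samples lay below untreated WT samples (log2 fold change -0.48, SE 0.16, edgeR adjusted p = 0.123, DESeq2 adjusted p = 0.0482) and overlapped DSS-treated WT samples. The difference between the DSS effects was 0.15 (95% interval -0.33 to 0.63) on the log2 scale. The WT call was lost without untreated WT replicate 1 or 2 or DSS-treated WT replicate 2 or 3 (adjusted p 0.0535 to 0.116), when the 2 WT groups were fitted alone (adjusted p = 0.0689), and with the leukocyte covariate, where the log2 fold change was larger in size (-0.98, adjusted p = 0.309).

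Ereg, the neighbour of Areg and the least abundant of the 5 tested ligands of the family set, had the widest span of group means, 3.56 on the log2 scale. It gave 26, 77 and 69 counts in untreated WT and 16, 0 and 1 in DSS-treated WT, which are 3.79, 12.6 and 10.7 CPM against 2.43, 0 and 0.163 CPM. In KO it gave 37, 27 and 24 counts untreated and 7, 11 and 0 with DSS. All DSS-treated samples lay below all untreated samples, some of them at or under the floor of 3 counts. The WT change was -3.37 on the log2 scale (SE 0.98, 95% interval -5.48 to -1.27), with an edgeR adjusted p of 0.0587. The KO change was -1.96 (SE 0.98), with an edgeR adjusted p of 0.357. The size of the WT change ran from -2.76 to -6.62 when 1 library was left out, the latter without DSS-treated WT replicate 1, and that of the KO change from -1.35 to -2.67. Without the filter on low counts both passed (adjusted p = 1.03e-06 in WT and 0.0275 in KO). The WT change also passed in DESeq2 (adjusted p = 0.00808) and on leaving out some libraries (without untreated WT replicate 1, DSS-treated WT replicate 1 or DSS-treated KO replicate 3, adjusted p 0.00911 to 0.0473). Of 20 alternative fits, 5 passed in WT and 1 in KO, and the adjusted p reached 0.594 and 0.623. Of its exons, 141 bases overlap the antisense gene Gm19610, and without strand information reads there cannot be assigned.

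Tgfa and Btc did not pass in any contrast, and their groups overlapped in all of the 4 group comparisons. Tgfa ranged from 19.9 to 51.2 CPM and both of these extremes were in untreated samples. Its DSS change had a 95% interval of -1.09 to 0.32 in WT and of -1.15 to 0.27 in KO on the log2 scale. Btc ranged from 4.10 to 15.7 CPM, with means of 6.93 ± 2.57 and 7.94 ± 3.03 CPM in untreated and DSS-treated WT and 10.1 ± 2.36 and 13.2 ± 3.05 CPM in KO (SD, n = 3). Its KO difference was positive both without DSS (log2 fold change 0.54, edgeR adjusted p = 0.534) and with it (0.73, 95% interval -0.01 to 1.48, edgeR adjusted p = 0.356).

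**Figure D2:**
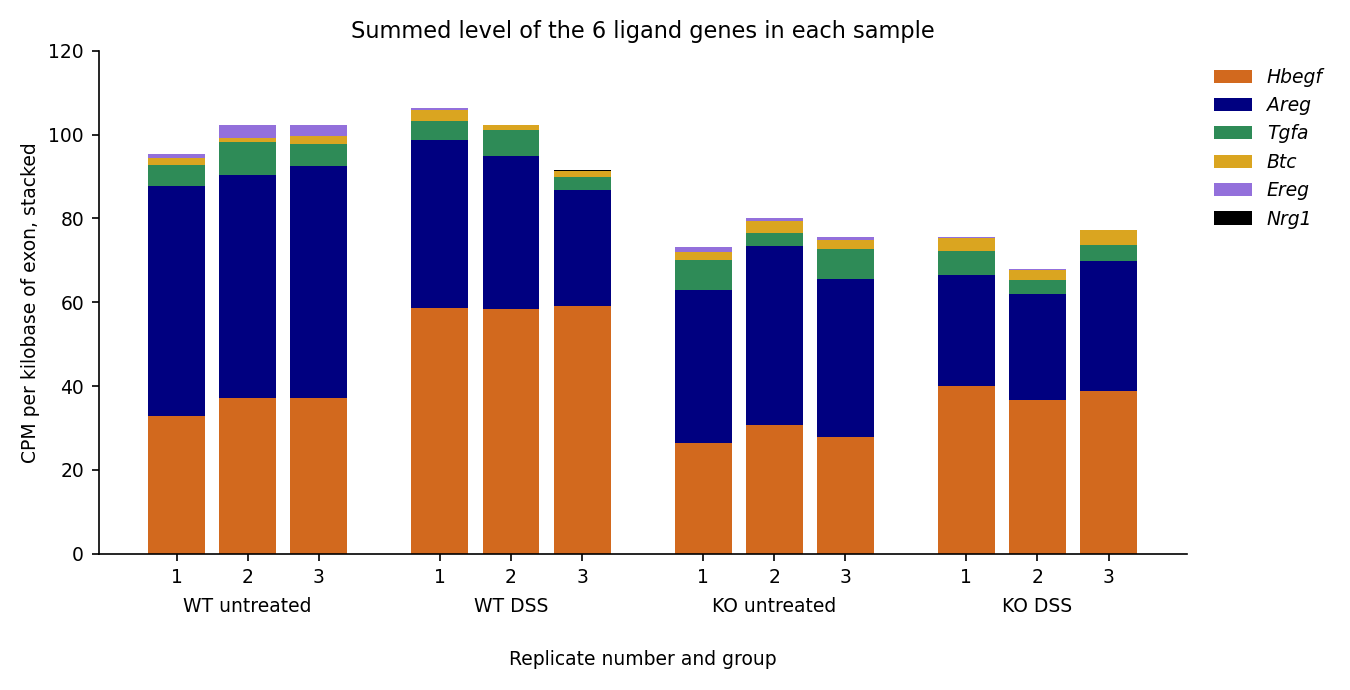
Stacked CPM per kilobase of exon of the 6 ligand genes in each of the 12 samples, replicates 1 to 3 side by side in each group. The Hbegf segment is tallest in DSS-treated WT, the Areg segment in untreated WT, and all 6 KO bars are below all 6 WT bars.

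The opposite courses of Hbegf and Areg changed the make-up of the ligand RNA. Per kilobase of exon, Areg made up 54.6% ± 2.85 of the 6 ligands in untreated WT and 34.6% ± 3.91 with DSS, and Hbegf 35.7% ± 1.10 and 58.9% ± 5.04 (SD, n = 3). In KO, Areg went from 51.1% ± 2.04 to 37.4% ± 2.77 and Hbegf from 37.1% ± 1.06 to 52.5% ± 1.93. Which ligand led without DSS depended on the length used. With the longest transcript in place of all exons, Hbegf made up 45.9% to 47.9% and Areg 40.7% to 45.9% in untreated WT. In untreated KO, Hbegf was then at least 46.9% and Areg at most 41.8%. With DSS, Hbegf again rose, to at least 66.2% in WT and 61.7% in KO. Areg again fell, to at most 27.2% and 29.6%. Counted as reads, which needs no gene length, there were 2.38 to 2.78 Hbegf reads per Areg read in untreated WT and 5.79 to 8.51 with DSS, against 2.85 to 2.94 and 4.96 to 6.05 in KO. Within each genotype the ranges of this ratio did not overlap. Between the genotypes they overlapped under DSS and did not overlap without it.

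The summed ligand level per kilobase was 99.9 ± 4.03 in untreated WT and 100.1 ± 7.70 in DSS-treated WT, and 76.3 ± 3.52 and 73.5 ± 4.90 in KO (SD, n = 3). All 6 KO samples, at 68.0 to 80.1, lay below all 6 WT samples, at 91.5 to 106. These sums depend on the length used. With the longest transcript in place of all exons, the sum was 127 ± 6.14 and 142 ± 7.92 in untreated and DSS-treated WT and 98.1 ± 4.07 and 102 ± 6.25 in KO, so KO again lay below WT while WT was higher with DSS in each of 3 samples. The summed receptor level was 86.7 and 113 in untreated and DSS-treated WT and 78.2 and 111 in KO per kilobase of exon.

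Errfi1, the inhibitor, did not pass in any contrast. Its values were 137, 140 and 224 CPM in untreated WT and 129, 134 and 115 CPM with DSS. In KO they were 109, 111 and 120 CPM untreated and 150, 124 and 128 CPM with DSS. All 3 DSS-treated samples were thus lower than untreated ones in WT and higher in KO. The WT change was -0.41 on the log2 scale (SE 0.17), with an edgeR adjusted p of 0.203. The KO change was 0.24 (SE 0.17), with an edgeR adjusted p of 0.554. The difference between them was 0.65 (SE 0.23, 95% interval 0.14 to 1.15, unadjusted p = 0.0151, edgeR adjusted p = 0.287), which failed the correction over all genes. Without DSS, KO was lower (a log2 difference of -0.56, SE 0.17, edgeR adjusted p = 0.0871), and this passed in DESeq2 (adjusted p = 0.0300), without the filter on low counts (adjusted p = 0.0115) and without untreated WT replicate 1 (adjusted p = 0.0455). Untreated WT replicate 3, at 224 CPM, stood apart from its group, and with the leukocyte covariate both the WT change (0.49) and the untreated difference (0.26) turned positive.

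**Figure D3:**
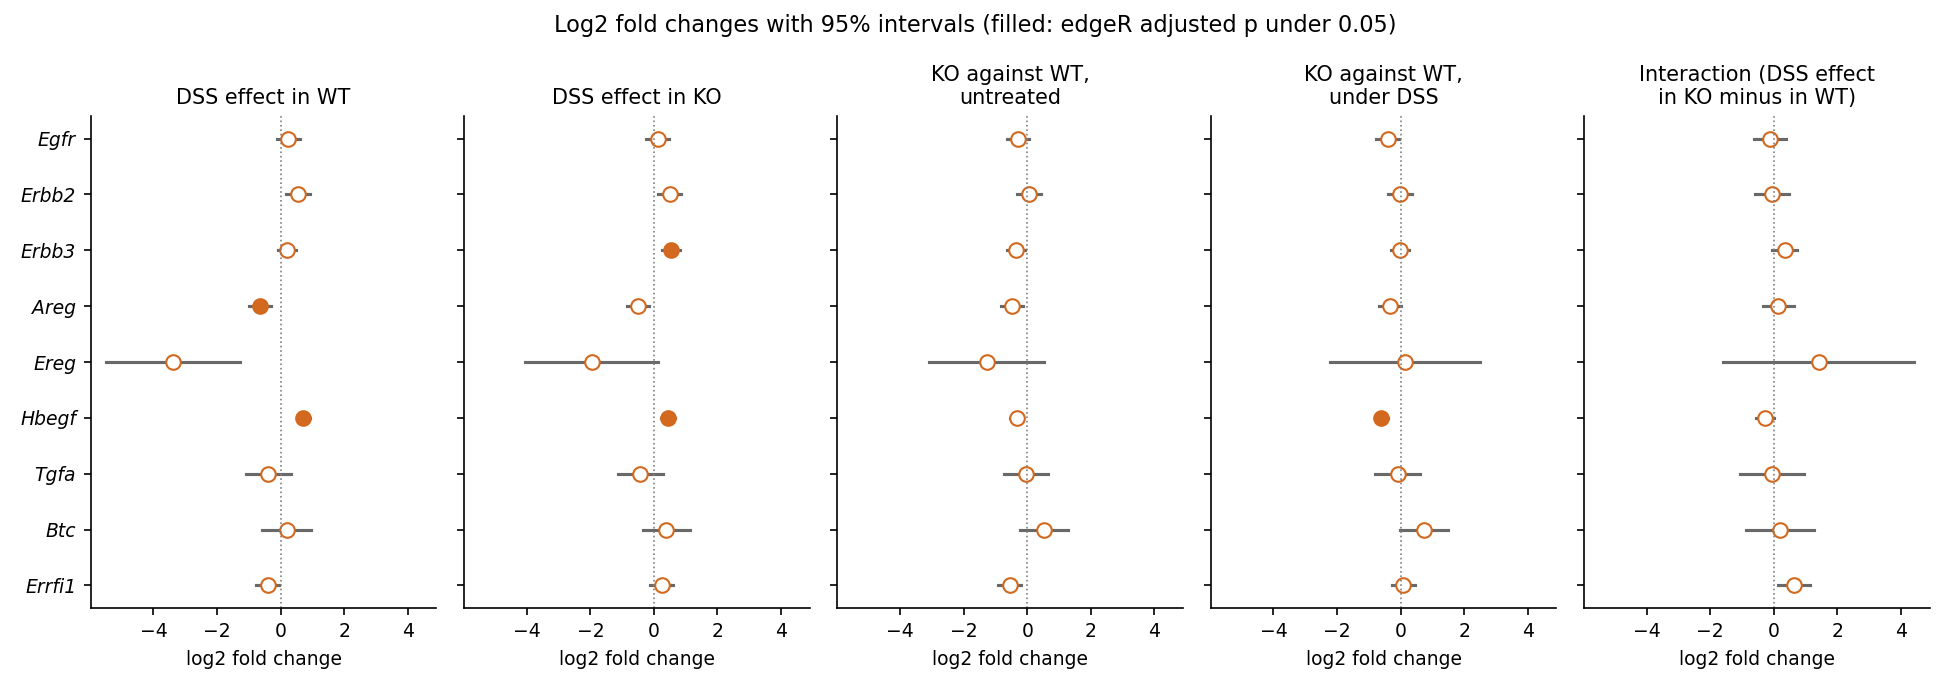
Log2 fold changes of the 9 tested genes with 95% intervals in the 5 contrasts, with filled points for an edgeR adjusted p under 0.05. Filled points are Areg and Hbegf for DSS in WT, Erbb3 and Hbegf for DSS in KO, and Hbegf for KO against WT under DSS.

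Counted over the 9 tested genes, the DSS contrast in WT called 2, Hbegf higher and Areg lower, against 6.3% of all 12522 genes tested (2.8% higher and 3.5% lower). In KO it called 2, Hbegf and Erbb3, both higher, against 3.92% of all genes (1.88% higher and 2.04% lower). For KO against WT without DSS, edgeR called 0 of 9 (4 at an unadjusted p under 0.05, and 3 in DESeq2) against 3.48% of all genes (1.72% higher and 1.76% lower). Under DSS it called 1, Hbegf, lower in KO, against 3.11% (1.77% higher and 1.34% lower). For the interaction it called 0 (1 at an unadjusted p under 0.05, and 0 in DESeq2) against 1.7% (1.17% higher and 0.527% lower). The median log2 fold changes of the 9 genes were 0.19, 0.24, -0.34, -0.01 and 0.15 in these contrasts in turn, beside medians of 0.02 or less in size over all genes. Groups did not overlap with DSS for 5 of 9 genes in WT, against 20.6% of all genes (10.7% higher and 9.96% lower), and for 6 of 9 in KO, against 24.3% (12% higher and 12.3% lower). Between the genotypes they did not overlap for 4 of 9 without DSS, all lower in KO, against 19.3% of all genes (9.81% higher and 9.52% lower), and for 2 of 9 under DSS, against 22.3% (11.7% higher and 10.6% lower). The contrasts share samples, so their counts are not independent.

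The remaining ligands and the remaining receptor were scarce. Erbb4, Nrg2 and Nrg3 had 0 counts in all 12 libraries, Epgn 0 to 4 and Nrg4 0 to 9. Egf itself gave 11 to 37 counts, the only one of these 6 genes to be tested, and did not pass. A list of 10 genes for ligand release includes the sheddases Adam10 and Adam17, and Rhbdf1 and Rhbdf2, partners of Adam17. Of these 10 genes, 9 were tested and edgeR called 0 in each contrast (2, 1, 1, 1 and 1 at an unadjusted p under 0.05, and 0, 0, 0, 1 and 0 in DESeq2). Of all genes tested, edgeR called 6.3%, 3.92%, 3.48%, 3.11% and 1.7%. Adam17 ranged from 54.5 to 72.7 CPM over the 12 samples. The median log2 fold change of the 9 genes lay between -0.17 and 0.20 in the 5 contrasts.

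All 26 genes of signal transduction downstream of the receptors were tested. With DSS in WT, 1 rose and 1 fell: Stat3, a transcription factor that many growth factor and cytokine receptors activate, and Map2k1, the kinase that activates ERK. Over all genes tested, 6.3% passed in WT (2.8% higher and 3.5% lower) and 3.92% in KO (1.88% higher and 2.04% lower). The calls of this list were near those shares. Stat3 went from 229 ± 10.5 to 300.5 ± 11.5 CPM in WT (a log2 difference of 0.39, SE 0.09, edgeR adjusted p = 0.0160) and from 239 ± 18.4 to 317 ± 7.99 CPM in KO (0.41, SE 0.09, edgeR adjusted p = 0.0190), the only call of the list in KO. Map2k1 went from 476 ± 84.0 to 343 ± 22.0 CPM in WT (-0.47, SE 0.11, edgeR adjusted p = 0.0219). Each of these calls was lost on leaving out some libraries. For Stat3 in WT they were untreated replicate 2 and DSS replicates 1 and 3 (adjusted p 0.0638 to 0.0802), and in KO untreated replicates 1 and 3 and any DSS replicate (adjusted p 0.0504 to 0.108). For Map2k1 they were untreated replicates 1 and 2 and DSS replicates 1 and 3 (adjusted p 0.0658 to 0.107). When the WT groups were fitted alone, neither Stat3 (adjusted p = 0.0806) nor Map2k1 (adjusted p = 0.112) passed, and Stat3 in KO did not pass without the filter on low counts (adjusted p = 0.0571). With the leukocyte covariate the log2 differences were 0.45 (adjusted p = 0.418) and 0.44 (adjusted p = 0.243) for Stat3 in WT and KO and -0.91 (adjusted p = 0.149) for Map2k1. In the genotype contrasts and the interaction, edgeR called 0 of 26 (0, 1 and 3 at an unadjusted p under 0.05, and 0 in DESeq2). Of all genes, 3.48%, 3.11% and 1.7% passed there.

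Among 20 negative regulators, 1 passed with DSS in WT and 1 between the untreated genotypes. Over all genes tested, 6.3% and 3.48% passed in these contrasts, so the calls of this list were near the share of all genes. Lrig1, a membrane protein that promotes loss of ErbB receptors and marks a population of intestinal stem cells, rose from 19.2 ± 7.41 to 36.2 ± 5.94 CPM in WT (a log2 difference of 0.92, SE 0.25, edgeR adjusted p = 0.0443), a call lost in 11 of the 12 fits that left out 1 library, when the WT groups were fitted alone (adjusted p = 0.124) and with the leukocyte covariate (1.71, adjusted p = 0.263). Dusp6, a phosphatase of ERK, was at 233 ± 26.6 CPM in untreated WT and at 153 ± 9.89 CPM in untreated KO (log2 fold change -0.60, SE 0.11, edgeR adjusted p = 0.00577). All 3 untreated KO samples, at 143 to 162 CPM, lay below the 3 WT samples, at 203 to 252 CPM. This call was lost when the untreated groups were fitted alone (adjusted p = 0.0586) and with the leukocyte covariate (log2 fold change -0.91, adjusted p = 0.128). In the other 3 contrasts edgeR called 0 of 20 (1, 1 and 2 at an unadjusted p under 0.05, and 0 in DESeq2). Of all genes, 3.92%, 3.11% and 1.7% passed there.

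**Figure D4:**
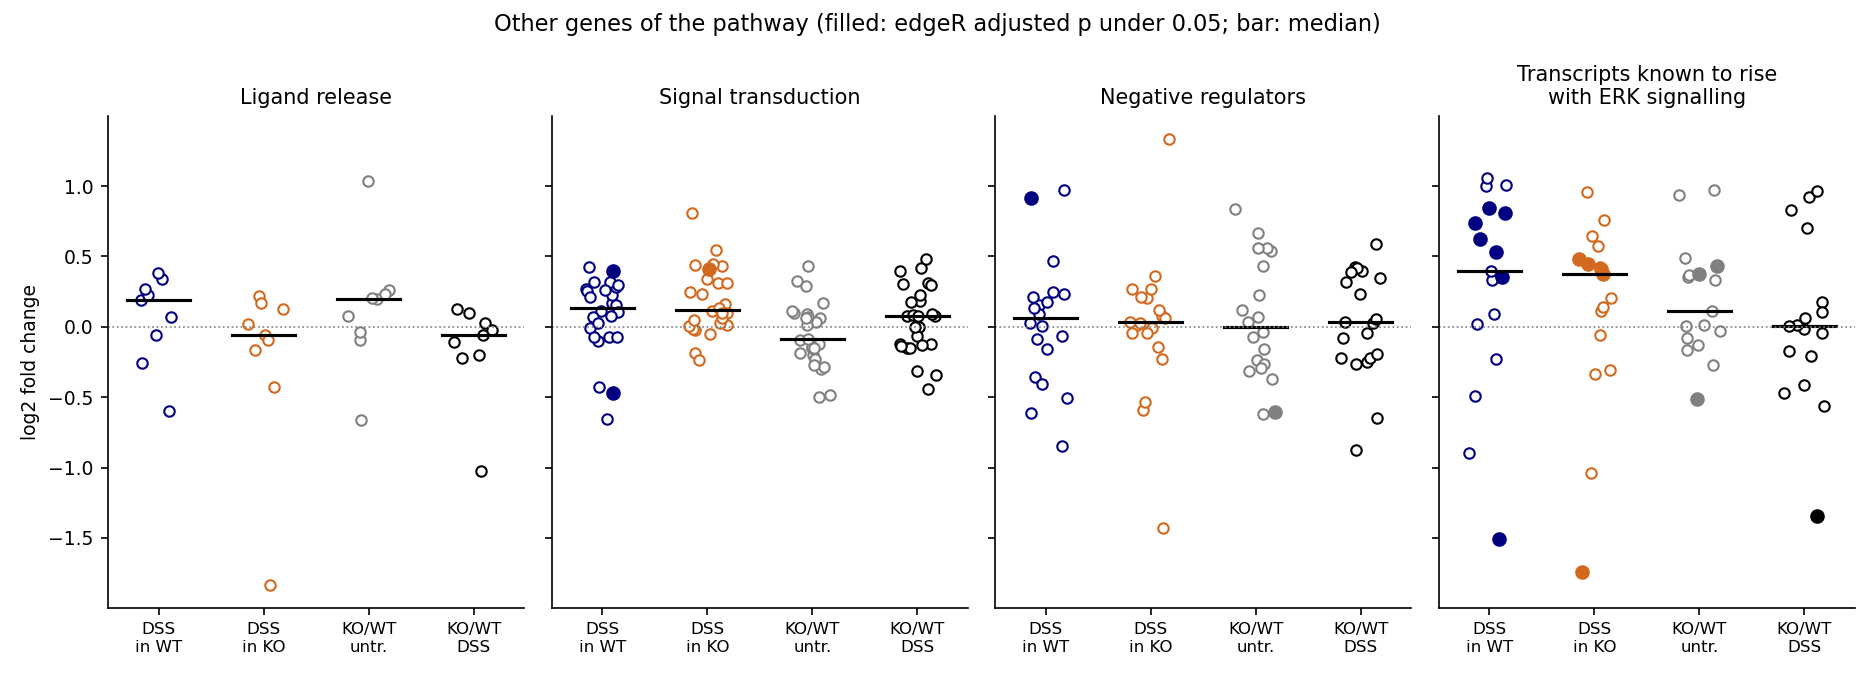
Log2 fold changes of the tested genes of 4 pathway lists in the 4 group comparisons, 1 point per gene, with filled points for an edgeR adjusted p under 0.05 and bars for the list median. The list of transcripts known to rise with ERK signalling has medians of 0.40 and 0.37 with DSS in WT and KO, and the other lists have medians nearer 0 there.

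Of 19 transcripts known to rise with ERK signalling, 17 were tested, and 6 rose and 1 fell with DSS in WT, while 4 rose and 1 fell in KO. Over all genes tested, 6.3% passed in WT (2.8% higher and 3.5% lower) and 3.92% in KO (1.88% higher and 2.04% lower). The median log2 fold change was 0.40 in WT and 0.37 in KO, beside 0.0063 and 0.015 over all genes. Junb, a subunit of AP-1, went from 263 ± 8.90 to 460 ± 2.97 CPM in WT (a log2 difference of 0.81, SE 0.08, edgeR adjusted p = 1.23e-05) and from 341 ± 10.1 to 464 ± 10.3 CPM in KO (0.45, SE 0.08, edgeR adjusted p = 0.00477). Egr1, an early growth response factor, was at 316 ± 81.2 and 566 ± 13.8 CPM in WT (0.84, SE 0.14, edgeR adjusted p = 0.00167). Dusp1, a phosphatase of several MAP kinases, and Jun, another AP-1 subunit, rose in both genotypes, by 0.74 and 0.63 in WT and 0.48 and 0.41 in KO on the log2 scale. The KO calls of Dusp1 and Jun were lost in 5 and 6 of the fits that left out 1 KO library (adjusted p 0.0518 to 0.0712).

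Etv4, an ETS factor, fell in both genotypes (-1.51 in WT with SE 0.37 and an edgeR adjusted p of 0.0219, -1.74 in KO with SE 0.35 and an edgeR adjusted p of 0.0107) at 14 to 120 counts per library. Fos also rose in both, by 0.35 in WT and 0.37 in KO. Fos, Etv4 and Ccnd1 in WT, and Jun in KO, fall outside the rule for named genes and were named there after their values were seen. The Etv4 calls were lost without untreated WT replicate 3 or DSS-treated WT replicate 2 or 3 (adjusted p 0.0766 to 0.0971) and without DSS-treated KO replicate 2 (adjusted p = 0.0540), and the Fos call in KO without untreated KO replicate 1 (adjusted p = 0.0558). When the WT groups were fitted alone, neither Etv4 (adjusted p = 0.0959) nor Fos (adjusted p = 0.101) passed. With the leukocyte covariate Etv4 was at -0.56 in WT (adjusted p = 0.836) and -1.21 in KO (adjusted p = 0.401). Fos was then at 0.20 in WT (adjusted p = 0.648) and 0.28 in KO (adjusted p = 0.308). Junb kept its size with this covariate, at 0.86 in WT (adjusted p = 0.0615) and 0.47 in KO (adjusted p = 0.139), and Jun in KO was at 0.59 (adjusted p = 0.0645). Fos, Jun, Junb and Egr1 also rise when tissue is handled. The summed level of 8 dissociation and heat-shock genes was 2622–3013 CPM in untreated and 3196–3295 in DSS-treated WT, and 2656–2826 and 2492–2707 in KO. Hspa8, at 9756 to 16532 counts, weighs most in this sum. The mean log2 CPM of the 8 genes was 5.91–6.22 and 6.31–6.46 in WT, and 5.50–5.62 and 5.81–6.15 in KO. Of 7 tested, 2 rose with DSS in WT (2.8% of all genes did). In KO 3 rose and 1 fell (1.88% and 2.04% of all genes). The part of these genes in the changes above was not tested. With the leukocyte marker level as a covariate, 3 pathway genes over all lists passed with DSS in WT in place of 10, and 1 in KO in place of 6.

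Ccnd1, which encodes the cell-cycle protein cyclin D1, was the gene of this list that differed most between genotypes under DSS. It was at 105, 121 and 105 CPM in untreated WT and 166, 159 and 153 CPM in DSS-treated WT. In KO it was at 76.6, 83.6 and 72.1 CPM untreated and 55.3, 63.8 and 68.9 CPM with DSS. All 6 KO samples lay below all 6 WT samples. Ccnd1 rose with DSS in WT (a log2 difference of 0.53, SE 0.12, edgeR adjusted p = 0.0128) and was at -0.30 in KO (edgeR adjusted p = 0.210), and the difference between these effects was -0.83 (SE 0.17, edgeR adjusted p = 0.0156). Under DSS, KO was at a fold of 0.394 of WT (a log2 difference of -1.34, SE 0.12, edgeR adjusted p = 1.49e-05), and without DSS at 0.702 (-0.51, SE 0.12, edgeR adjusted p = 0.0272). The WT change was lost without untreated or DSS-treated WT replicate 1 (adjusted p 0.0539 and 0.0716), the untreated difference without untreated WT replicate 2 or any untreated KO replicate (adjusted p 0.0528 to 0.138), and the difference of effects without DSS-treated WT replicate 1 or untreated KO replicate 2 (adjusted p 0.0644 and 0.0567). With the leukocyte covariate the WT change was 0.23 (adjusted p = 0.782), the untreated difference -0.78 (adjusted p = 0.222) and the difference of effects -0.71 (adjusted p = 0.106). The untreated difference also failed with the stromal covariate (adjusted p = 0.0672) and in the fit of the untreated groups alone (adjusted p = 0.109). Junb and Dusp1 were the genes of the list higher in untreated KO than in untreated WT (log2 fold changes 0.38 and 0.43, edgeR adjusted p = 0.0154 and 0.0289). Those calls were lost for Junb without untreated KO replicate 1 or 3 (adjusted p 0.0752 and 0.0683), and for Dusp1 without any 1 of the untreated libraries other than WT replicate 3, or without DSS-treated WT replicate 1 (adjusted p 0.0508 to 0.130). Both also failed when the untreated groups were fitted alone (adjusted p = 0.107 for Junb and 0.145 for Dusp1) and with the leukocyte covariate (log2 fold changes 0.42 and 0.89, adjusted p = 0.330 and 0.0778).

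The genes whose log2 CPM followed that of Ereg most closely over the 12 samples were Ank3 (Pearson r = 0.925), Atp6v0a2 (r = 0.922), Heph (r = 0.917), Dgkq (r = 0.914) and Slc7a11 (r = 0.900). This is a description over samples that share groups, and Ereg was at 0 or 1 count in 3 of the 12. Ank3, which encodes ankyrin G, was at 128 CPM in untreated WT, 77.2 in DSS-treated WT, 101 in untreated KO and 68.3 in DSS-treated KO.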

How the data were processed

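Bulk RNA was measured in 12 samples, 4 groups of 3, grouped by their titles. The values deposited are whole-number read counts per gene. STAR 2.5.2b, featureCounts 1.5.0 and the builds GRCm38 and mm10 are named in the submitters' processing notes, and the annotation and strand setting are not given in the sources used here. Libraries were SMART-seq2 and Nextera XT without molecular identifiers, per the labels' protocols. PCR copies are therefore not independent molecules.

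Symbols and coordinates came from GENCODE M21 (GRCm38) by unversioned ID, which matched 46005 of 46517 IDs, 27555 of them with the version. No pair of replicates agreed within sampling noise (chi-square per degree of freedom 6.51 to 27.0). The series' design text calls the replicates biological.

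Counts were tested in R 4.3.3 with edgeR 4.0.16 (filterByExpr, which kept 12522 genes and 99.8% of counts, TMM, 1 coefficient per group over all 12 samples, quasi-likelihood F test, two-sided, Benjamini-Hochberg adjustment over all genes, threshold 0.05). The standard error is the log2 fold change over the square root of F, and 95% intervals use the t distribution. The common biological coefficient of variation was 0.227. Log2 CPM used a prior count of 2. Levels per kilobase divide CPM by exonic length. The fit was tested on simulated data. Alternatives were DESeq2 1.42.0, other scaling and filters, marker covariates, fits of the compared groups alone, each library left out and a replicate block. Same-numbered untreated and DSS-treated KO samples deviated together (r = 0.20, 0.11 and 0.13). This is a hint that the numbers may pair the samples in that contrast, which was not tested. In WT the same correlations were r = 0.014, 0.12 and 0.13, and each sample also correlated best with its own number. Within a genotype, same-numbered untreated and DSS-treated samples have neighbouring library numbers, though the labels name no pairing. Between genotypes samples share only a number. The main fit used no pairing.

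Named genes were all 10 of the family, up to 4 genes per pathway list and contrast with the smallest adjusted p under the threshold, the 5 genes most correlated with the widest-ranging member, and Nfkb2. The members and lists were chosen with earlier results of these data known. Leukocyte, T cell, myeloid, stromal, endothelial, epithelial and dissociation genes served as marker lists.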

Additional observations from a re-analysis of the deposited data

Results flagged for a closer look

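The DSS effect on Ccnd1, which encodes cyclin D1, differed between the genotypes by a test of the difference itself. The effect in KO minus that in WT was -0.83 on the log2 scale (SE 0.17, edgeR adjusted p = 0.0156), with 3 of 3 DSS-treated samples above all untreated ones in WT and 3 of 3 below all untreated ones in KO. The difference did not pass without DSS-treated WT replicate 1 (adjusted p = 0.0644), without untreated KO replicate 2 (adjusted p = 0.0567) or with the leukocyte marker level as a covariate (-0.71, adjusted p = 0.106).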

How the results depend on the processing

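The counts of genes past the threshold moved with the processing. With DSS in WT, in KO, for KO against WT untreated and under DSS, and for the interaction, leaving out 1 library gave 483–958, 235–710, 212–725, 160–566 and 152–350 of all genes tested, 1–3, 0–2, 0–1, 1–1 and 0–0 of the 9 members, and 6–11, 2–7, 1–8, 1–4 and 0–4 pathway genes. The leukocyte covariate gave 150, 125, 75 and 155 genes in the first 4 contrasts, 0 members for DSS in WT, in KO and for KO against WT under DSS, and 3, 1, 0 and 0 pathway genes for DSS in WT, in KO, for the untreated genotypes and for the interaction. The stromal covariate gave 200 genes and 2 pathway genes for KO against WT under DSS and 1 member for DSS in KO. Without a filter there were 776, 703, 642 and 356 genes in the last 4 contrasts, 4, 4 and 1 members in the first 3, and 10 and 4 pathway genes for DSS in KO and KO against WT under DSS. DESeq2 gave 800, 790, 662 and 368 genes in the last 4, 4 members for DSS in WT and 3 for the untreated genotypes, with 3 pathway genes for KO against WT under DSS and 2 for the interaction. Fitting 2 groups alone gave 467 genes, 1 member and 5 pathway genes for DSS in WT, 195 genes and 0 pathway genes for the untreated genotypes, and 3 pathway genes for KO against WT under DSS. The cause of these shifts was not tested. DESeq2 size factors moved the median of all genes by at most 0.011.

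With the replicate number as a block the counts were 695, 409, 345, 290 and 186 genes. Of the members, 2, 2, 0, 1 and 0 passed the threshold, as without the block. The block gave same-numbered WT and KO samples a common term, though these share only a number. It therefore cannot decide whether pairing within a genotype would change the calls, and a block within each genotype was not tested. Each sample correlated best with its own number within a genotype. Between genotypes none did (r = -0.18 to -0.01).

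Signs turned with the leukocyte covariate for Erbb2 (-0.22 for KO against WT untreated, 0.059 for the interaction), Erbb3 (0.044, KO against WT under DSS), Tgfa (0.069, interaction) and Errfi1 (0.49 for DSS in WT, 0.26 for KO against WT untreated), and with the stromal covariate for Erbb2 (0.0087, KO against WT under DSS). Leaving out 1 library turned the sign of values near 0, with ranges for the interaction of -0.24 to 0.042 for Egfr, -0.26 to 0.095 for Erbb2, -0.36 to 0.22 for Tgfa and -0.049 to 0.55 for Btc. For KO against WT under DSS the ranges were -0.059 to 0.024 for Erbb2, -0.15 to 0.11 for Erbb3, -0.58 to 3.37 for Ereg, -0.34 to 0.18 for Tgfa and -0.0015 to 0.13 for Errfi1. They were -0.11 to 0.25 for Erbb2 and -0.23 to 0.27 for Tgfa untreated, -0.0082 to 0.28 for Egfr with DSS in KO, and -0.16 to 0.43 for Btc with DSS in WT.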
